A study of Mus musculus with 15 samples.

Results

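Matrix metalloproteinases and their inhibitors were followed in 15 RNA-seq libraries of the mouse embryonic pancreas. The genes were 6 metalloproteinases (Mmp2, Mmp9, Mmp11, Mmp14, Mmp15 and Mmp23), the tissue inhibitors Timp1, Timp2 and Timp3, and Reck, chosen by symbol among the 25292 genes of the deposited read count table. All 10 genes are annotated as protein-coding, and all 10 passed the filter on low counts that left 16245 genes for testing. Each of the 5 groups held 3 libraries. Fresh pancreata were taken at 14.5 dpc (days post coitum) from wild-type (wt) or S1pr2 null embryos. Wild-type dorsal buds were explanted at 14.5 dpc and kept for 2 days at an air-liquid interface in standard medium (control), with 15 µM JTE013, an antagonist of the sphingosine-1-phosphate receptor S1pr2 (JTE), or with 15 µM JTE013 and 50 ng/ml of connective tissue growth factor (JTE + CTGF). All embryos were of the C57/Bl6J strain, and a library could pool organs or explants of more than one embryo. The null allele, S1pr2tm1Rlp, carries a selection cassette that interrupts the first exon and is not limited to one cell type. The antagonist was in the medium of whole explants, wild type in genotype, for the length of the culture.

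Matrix metalloproteinases are zinc-dependent endopeptidases that cut collagens, laminins, proteoglycans and cell surface proteins. Most are made as inactive precursors and are opened by furin-like convertases, by plasmin or by each other. The TIMPs bind the active site of the mature enzymes, and Reck is a membrane-anchored glycoprotein that restrains several of them at the cell surface. Mmp14 and Timp2 also act together, since the inhibitor holds pro-Mmp2 on the cell surface where a free Mmp14 molecule cuts it. In organs that branch, such as the pancreas, the balance of these proteins shapes the matrix between epithelium and mesenchyme.

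The libraries held 11402804 to 13828737 reads assigned to genes. Reads of S1pr2 were not reduced in the libraries labelled S1pr2 null. The normalised read counts were 772, 762 and 762 in wt against 1458, 1263 and 1354 in the libraries labelled S1pr2 null, a log2 difference of 0.83 ± 0.07 (SE; edgeR adjusted p = 4.5e-07). A count summed over the gene does not tell which exons the reads fell on, so it does not check the label, and directions drawn from this genotype rest on the label. A normalised read count is a count divided by the TMM-scaled library size and multiplied by the mean of those sizes. JTE replicate 3 stood apart from its group. The chi-square per gene was 17.2 and 23.2 between it and the other JTE libraries, against 2.34 to 10.2 for the other pairs within groups. In that library 9 of the 10 genes had the highest value of the JTE group and Mmp15 had the lowest, so the calls of members that use JTE are also given without it.

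The members on which the results turn most lie in different parts of the genome. On mm10 coordinates of the GENCODE annotation, Timp1 (ENSMUSG00000001131) spans 20870166 to 20874735 on the plus strand of chromosome X, within Syn1 on the other strand but with no exon in common. Mmp23 (ENSMUSG00000029061) spans 155650655 to 155653384 on the minus strand of chromosome 4. Mmp14 (ENSMUSG00000000957) spans 54431604 to 54441258 on the plus strand of chromosome 14, and Reck (ENSMUSG00000028476) spans 43875530 to 43944806 on the plus strand of chromosome 4. Timp3 (ENSMUSG00000020044, chromosome 10, 86300372 to 86349506, plus strand) shares 1733 exonic bases with Syn3 on the other strand. The strand setting of the counting was not stated, so reads there cannot be assigned with certainty. Syn3 itself had 16 to 47 reads per library.

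The 100 bases before the annotated start are shown for Timp1, Mmp23, Mmp14 and Reck. With JTE013 in culture Timp1 and Mmp23 fell most and Reck rose most. Mmp14 had the smallest rise of the 4 members called higher, and that call was lost without JTE replicate 3. The sequences come from RefSeq on GRCm38.p6 and are written along the gene's strand. Capitals mark each match to the GC box GGGCGG, on either strand, which is the letter motif of Sp1 and related factors.
Timp1, chrX:20870066-20870165 (+): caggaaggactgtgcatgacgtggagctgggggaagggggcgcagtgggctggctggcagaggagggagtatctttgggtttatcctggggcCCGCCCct
Mmp23, chr4:155653385-155653484 (−): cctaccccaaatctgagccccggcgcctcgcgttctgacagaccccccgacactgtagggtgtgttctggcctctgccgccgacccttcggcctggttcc
Mmp14, chr14:54431498-54431597 (+): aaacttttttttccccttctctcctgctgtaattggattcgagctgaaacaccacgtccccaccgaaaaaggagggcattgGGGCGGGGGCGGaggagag
Reck, chr4:43875430-43875529 (+): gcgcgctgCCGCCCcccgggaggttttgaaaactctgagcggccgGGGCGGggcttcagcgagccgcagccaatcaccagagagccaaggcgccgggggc
The GC box occurred within 250 bases before the start in 7 of the 8 members that the promoter table holds. The exception was Mmp23, of which a further window, not printed, also lacked it. The share over all 32851 promoter windows was 32.7%, counted by window, while members were counted by gene. The AP-1 motif TGAGTCA was in 0 of 8 (4.46% of all windows), the Ets core CCGGAA in 0 of 8 (12%), TATAAA in 0 of 8 (12.4%) and the TEAD motif GGAATG in 2 of 8 (12.6%). CCGGAA and GGAATG can share the letters GGAA where they meet, and both strands were searched. Mmp2 and Mmp9 were not matched in the table. These are matches of letters, and no binding was measured.

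Mmp14 was the most abundant of the 10 transcripts per unit of length in every group. Mmp14 is the prototype membrane-anchored metalloproteinase, a collagenase and the activator of pro-Mmp2. Its level, in TMM-scaled CPM (the count as a share of the library, on a fixed scale) per kilobase of exon, was 85.4 ± 2.40 in wt, 85.2 ± 0.525 in S1pr2 null, 155 ± 18.5 in control, 190.3 ± 33.9 in JTE and 208 ± 15.8 in JTE + CTGF (SD, n = 3 in each). Mmp2 and Timp2, its partners in that activation, followed in all 5 groups, and the ranges of their levels overlapped in wt and in JTE. The lowest level was that of Mmp9 in wt (0.925 ± 0.255), S1pr2 null (1.59 ± 0.106) and control (5.21 ± 0.788), where in control its range overlapped that of Mmp23. With JTE013 it was that of Mmp23, at 1.96 ± 0.390 in JTE and 2.05 ± 0.353 in JTE + CTGF, where the range in JTE overlapped that of Mmp9. In the middle of the order, Mmp15, Timp3, Mmp11 and Reck had ranges in wt that overlapped from each to the next.

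**Figure D1:**
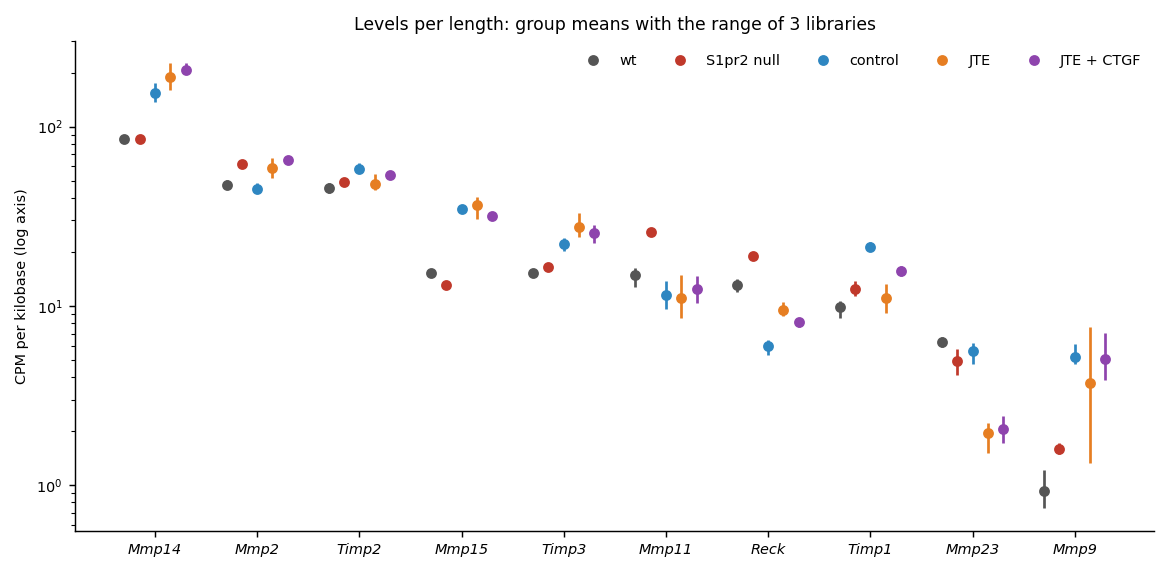
Level per length of the 10 genes, in CPM per kilobase on a log axis, with genes ordered by their wt level; points are group means and bars the range of 3 libraries. Mmp14 lies highest in all 5 groups, from 85.2 in S1pr2 null to 208 in JTE + CTGF, and the bar of Mmp9 in JTE is the longest.

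The metalloproteinases made up more of the summed level of the family in the libraries with JTE013. The sum of the 6 metalloproteinases, in CPM per kilobase, was 170.3 ± 6.23 in wt and 192 ± 3.58 in S1pr2 null, then 257 ± 22.6 in control, 303 ± 43.1 in JTE and 325 ± 17 in JTE + CTGF. The summed level of the 3 TIMPs was 70.5 ± 3.73, 78.3 ± 2.70, 101 ± 6.74, 86.7 ± 12.4 and 94.9 ± 4.44 in the same order. The ratio of the sums was 2.37 to 2.60 over the 9 libraries without JTE013 and 3.27 to 3.76 over the 6 libraries with it, and these ranges did not overlap. This ratio compares transcripts and not active enzyme. Mmp14 made up 50.1% of its numerator in wt, 44.4% in S1pr2 null, 60.3% in control, 62.9% in JTE and 64.1% in JTE + CTGF.

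**Figure D2:**
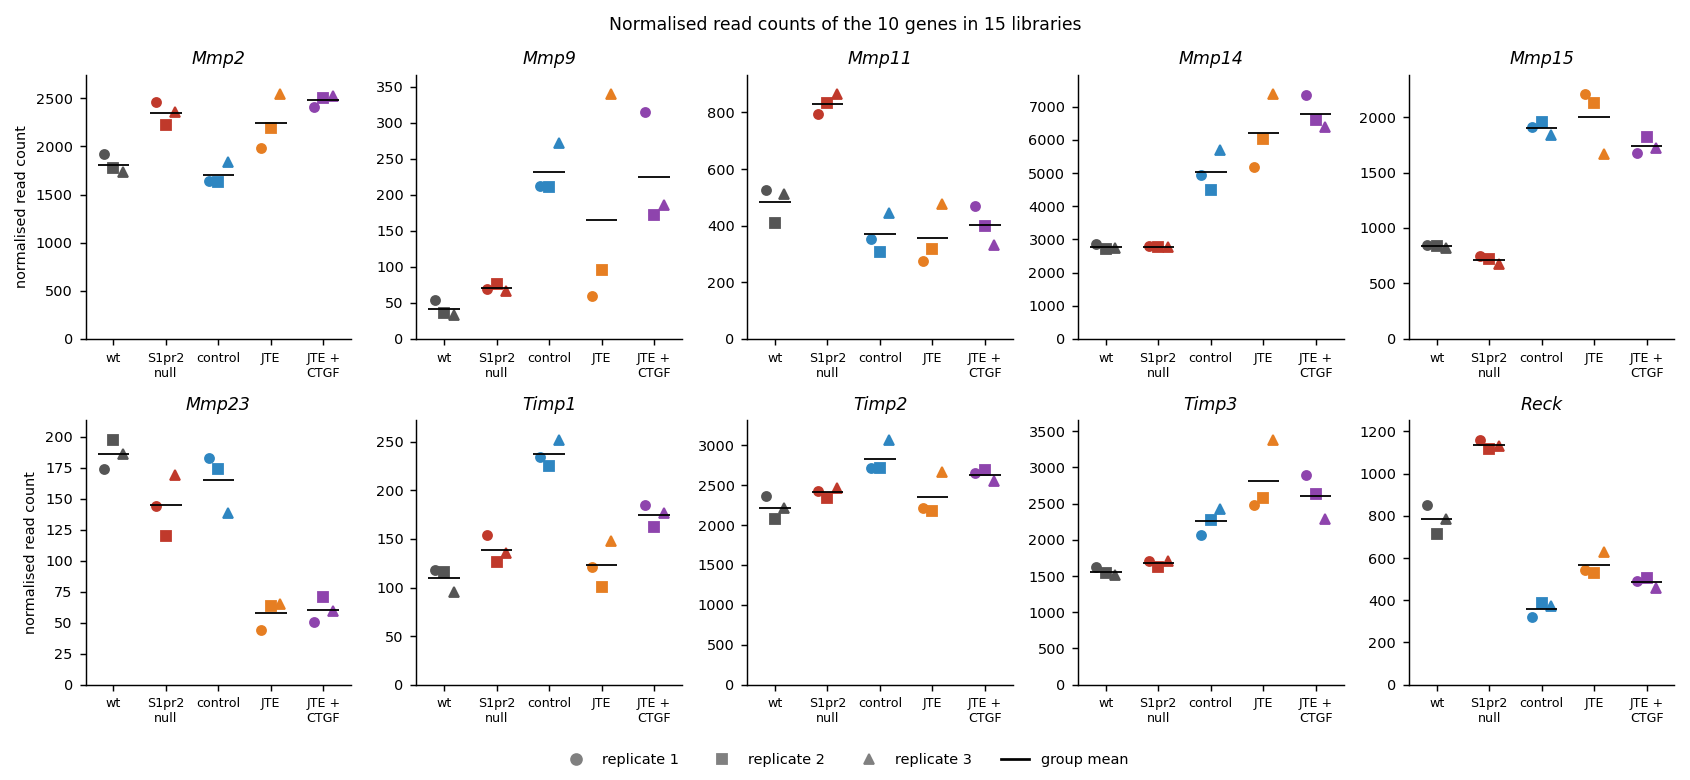
Normalised read counts of the 10 genes (y axis, from 0) in the 15 libraries, by group on the x axis; symbols mark the replicate number and lines the group means. Mmp23 lies between 44.4 and 71.0 in the 6 libraries with JTE013 and between 120.0 and 197 in the others.

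In fresh pancreata at 14.5 dpc, the comparison of S1pr2 null with wt asked how loss of the receptor changed these genes in the embryo. Higher values of Reck, Mmp11 and Mmp2 were found in libraries labelled S1pr2 null. As lower, 0 members passed by edgeR or DESeq2, and 2 (Mmp15 and Mmp23) had an unadjusted p under 0.05 by either tool. These were 3 of 10 members, against 25.8% of all genes tested that passed in either direction and 12.6% that passed as higher and 13.3% as lower. The median log2 fold change was 0.23 over the members and -0.01 over all genes.

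Reck, the membrane-anchored inhibitor, had the smallest adjusted p of the members. Its normalised counts were 851, 715 and 786 in wt and 1159.9, 1114 and 1129 in S1pr2 null. All 3 null libraries lay above all 3 wt libraries, and the difference was 1.45-fold (log2 0.53 ± 0.08, edgeR adjusted p = 9.06e-05).

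Mmp11, a secreted metalloproteinase known from stromal fibroblasts and activated by furin inside the cell, gave 527, 409 and 511 in wt and 796, 833 and 865 in S1pr2 null. The groups did not overlap, and the rise was 1.72-fold (log2 0.78 ± 0.16, edgeR adjusted p = 0.00162). It was the only member that met the criterion of the study in this comparison. That criterion asks for a fold change over 1.6 or under 0.6, a mean count over 100 and an adjusted p of at most 0.1. The authors applied it to DESeq2 values, and here it was applied to the edgeR values in every comparison. That criterion was met by 3.0% of all genes.

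Mmp2, the gelatinase expressed by mesenchymal cells, was measured at 1918, 1773 and 1738 in wt and at 2458, 2227 and 2356 in S1pr2 null. The rise was 1.30-fold without overlap (log2 0.37 ± 0.08, edgeR adjusted p = 0.00161). Its activator Mmp14 had 2869, 2719 and 2755 in wt and 2797, 2767 and 2767 in S1pr2 null. The null values lay within the wt range, the 95% interval of the log2 difference was -0.22 to 0.21, and the edgeR adjusted p was 0.992.

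The other members did not pass the test in this comparison, although several did not overlap. Timp1, Timp3 and Mmp9 were above wt in all 3 null libraries with log2 differences of 0.33, 0.11 and 0.77. Mmp15 and Mmp23, a membrane-type and a type II membrane metalloproteinase, were below wt in all 3, with log2 differences of -0.23 (edgeR adjusted p = 0.0543) and -0.36 (edgeR adjusted p = 0.0882). In all, 8 of 10 members did not overlap between the groups, against 46.3% of all genes. JTE replicate 3 is in neither group and enters through the filter, scaling, estimate of spread and p-value adjustment shared by all libraries. Without it, Timp1 and Mmp9 passed as higher (edgeR adjusted p = 0.0424 and 0.04) and Mmp15 as lower (0.00324).

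The makeup of the tissue differed between these groups as well. Of the epithelial, acinar and endocrine markers, 6 of 8, 6 of 7 and 9 of 9 tested were lower in S1pr2 null, and 6 of 10 mesenchymal markers were higher and 3 lower. The summed normalised count of the mesenchymal list was 67360 to 69844 in wt and 58599 to 66090 in S1pr2 null, and without its most abundant gene Col3a1, left out after the values were seen, it was 17091 to 18387 and 20623 to 21755. Neutrophil markers summed to 201 to 280 in wt and 336 to 675 in S1pr2 null, with 1 of 6 tested called higher. In bulk tissue, fewer cells of a type and less RNA per cell cannot be told apart, and the part of these shifts in the values of Mmp2, Mmp9, Mmp11 and Reck was not tested.

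In culture, JTE013 was compared with standard medium to ask what acute block of the receptor does to wild-type tissue. Mmp23, Timp1 and Timp2 fell, and Reck, Mmp2, Timp3 and Mmp14 rose. These were 7 of 10 members, 4 higher and 3 lower, against 52.2% of all genes tested that passed in either direction (25.9% higher and 26.2% lower). The median log2 fold change was 0.02 over the members and 0 over all genes. The inhibitors did not share a direction. Members that did not overlap between the groups numbered 6 of 10, against 56.7% of all genes.

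Timp1, the inducible and soluble inhibitor, was measured at 235, 225 and 252 in control and at 122, 101 and 148 in JTE. Each JTE library lay below each control library. The fall was 1.91-fold (log2 -0.94 ± 0.13, edgeR adjusted p = 1.15e-05), and -1.09 (edgeR adjusted p = 2.27e-06) without JTE replicate 3.

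Timp2, the constitutive inhibitor, changed less. Its counts were 2718, 2712 and 3067 in control and 2213, 2171 and 2669 in JTE, a fall without overlap (log2 -0.27 ± 0.07, edgeR adjusted p = 0.0053, and -0.37, edgeR adjusted p = 0.000111, without JTE replicate 3). The highest JTE value, of replicate 3, lay just under the lowest control value.

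Timp3, the inhibitor that stays bound to the matrix, went the other way. It had 2071, 2280.2 and 2427 in control and 2478, 2573 and 3379.9 in JTE (log2 0.32 ± 0.10, edgeR adjusted p = 0.0139). The groups did not overlap, but the call was lost without JTE replicate 3 (log2 0.16, edgeR adjusted p = 0.0974) and without control replicate 1.

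Reck gave 319.6, 388 and 372 in control and 543, 529 and 629.7 in JTE. It was 1.58-fold higher with no overlap (log2 0.66 ± 0.09, edgeR adjusted p = 7.38e-06) and kept the call without JTE replicate 3 (log2 0.57, edgeR adjusted p = 2.59e-05).

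Mmp23, which has a short cysteine-rich C-terminal region in place of the hemopexin domain of other family members, had the largest change of the 10 genes with JTE013. It was measured at 183, 174 and 139 in control and at 44.4, 63.3 and 65.1 in JTE. The fall was 2.85-fold (log2 -1.51 ± 0.17, edgeR adjusted p = 1.63e-06), the groups lay far apart, and the value was -1.61 without JTE replicate 3. Mmp23 and Timp1 were the members that met the criterion of the study, which 8.25% of all genes met.

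Mmp2 had 1642, 1629.7 and 1839 in control and 1981, 2196 and 2544 in JTE, a rise of 1.32-fold without overlap (log2 0.40 ± 0.08, edgeR adjusted p = 0.00035, and 0.29, edgeR adjusted p = 0.00163, without JTE replicate 3). Mmp14 was measured at 4941, 4500.0 and 5694 in control and at 5190.4, 6030.4 and 7381 in JTE. These ranges overlapped. The call for Mmp14 (log2 0.30 ± 0.10, edgeR adjusted p = 0.0191) was lost without JTE replicate 3 (log2 0.15, edgeR adjusted p = 0.138), and also without control replicate 1 or 2.

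Mmp9, the gelatinase of inflammatory cells, had the widest spread of the members within a group. It gave 212, 210.1 and 272 in control and 59.2, 96.0 and 339 in JTE. JTE replicates 1 and 2 lay below every control library, while replicate 3 lay above every one and was 4.37 times the mean of the other JTE libraries. With all libraries the difference did not pass the test (log2 -0.47 ± 0.40, edgeR adjusted p = 0.346). Without replicate 3 it was -1.57 (edgeR adjusted p = 5.72e-05). Macrophage markers moved here too, since 9 of 9 were lower in JTE and their summed normalised count was 4270 to 4583 in control and 1356 to 1566 in JTE. In JTE the neutrophil sum was 2.12 to 50.2 with Elane and Camp at 0, and 41.7 to 228 in control. The part of these cells in the value of Mmp9 was not tested.

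Mmp11 and Mmp15 did not pass the test with all libraries (log2 -0.04 and 0.07, edgeR adjusted p = 0.87 and 0.45), and Mmp15 passed as higher without JTE replicate 3 (log2 0.19, edgeR adjusted p = 0.00778). Without that library the call set of members was 3 higher and 4 lower, against 3954 higher and 4108 lower of 16481 genes tested. The members gained were Mmp9 and Mmp15, and those lost were Mmp14 and Timp3. In the JTE group, endocrine markers were lower in 9 of 9, endothelial markers in 7 of 8 and epithelial markers in 6 of 8. Mesothelial markers were lower in 4 of 5, where 26.2% of all genes passed as lower. Of 7 smooth muscle and pericyte markers, 4 were lower and 1 was higher. Of 10 mesenchymal markers, 1 was higher and 3 were lower. The mesenchymal list summed to 72409 to 77315 in control and 66187 to 81149 in JTE. Without Col3a1, left out after the values were seen, these sums were 21805 to 24575 and 17895 to 20382. The endocrine list summed to 67978 to 78654 in control and 18026 to 22549 in JTE, and the epithelial list to 35211 to 39815 and 22698 to 28463. Acinar markers summed to 565436 to 755654 in control. In JTE they summed to 567821 in replicate 3 and to 894421 and 1020240 in replicates 1 and 2. Of 7 acinar markers tested, 1 was higher and 1 lower in JTE. The part of these shifts in the members' values was not tested.

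**Figure D3:**
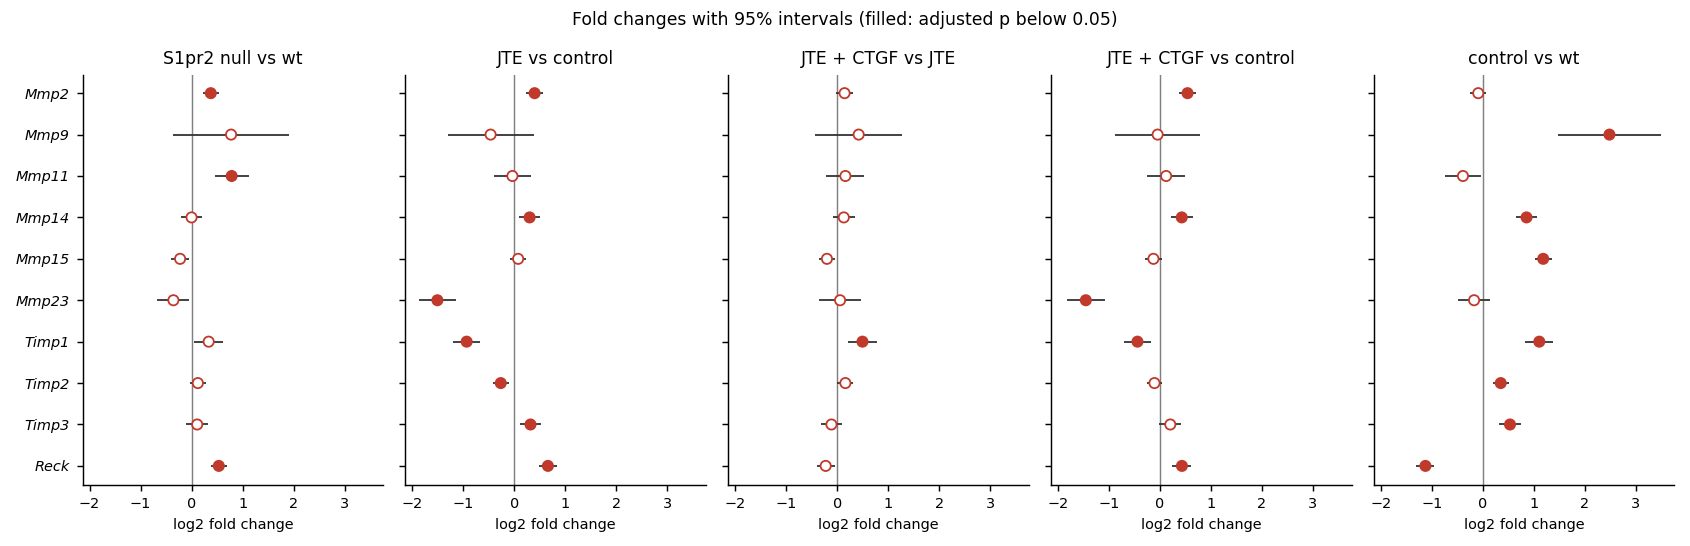
Log2 fold changes (x axis) of the 10 genes in the 5 comparisons, with 95% confidence intervals as bars and filled points for an adjusted p below 0.05. Mmp23 lies at -1.51 for JTE and -1.45 for JTE + CTGF against control, and Reck at -1.12 for control against wt.

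CTGF, a secreted matricellular protein, was given together with JTE013, and its effect on these genes was read from JTE + CTGF against JTE. Timp1 was higher and was the only member that passed, 1 of 10 against 30.4% of all genes tested (13.6% higher and 16.8% lower). As lower, 0 members passed by edgeR or DESeq2, and 2 (Reck and Mmp15) had an unadjusted p under 0.05 by either tool. Members without overlap between the groups numbered 2 of 10, against 40.2% of all genes, and 0 met the criterion of the study, against 1.74%. The median log2 fold change was 0.14 over the members and -0.00 over all genes. Timp1 had 122, 101 and 148 in JTE and 185, 163 and 176 in JTE + CTGF, without overlap. The rise was 1.41-fold (log2 0.50 ± 0.13, edgeR adjusted p = 0.00916), and without JTE replicate 2 the edgeR adjusted p was 0.0502. Timp1 stayed below control in all 3 JTE + CTGF libraries (log2 -0.44 ± 0.12 against control, edgeR adjusted p = 0.00568). These comparisons share the JTE or control libraries. Erythroid markers summed to 173 to 499 in JTE and 859.9 to 1280.2 in JTE + CTGF, with 4 of 8 called higher, and their part in the members' values was not tested.

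Mmp23 showed no such rise. Its counts were 50.3, 71.0 and 59.2 in JTE + CTGF, which overlapped those of JTE (44.4, 63.3 and 65.1). The 95% interval of the log2 difference was -0.36 to 0.47 (edgeR adjusted p = 0.862). Against control it was 2.74-fold lower (log2 -1.45 ± 0.17, edgeR adjusted p = 1.85e-06).

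Without JTE replicate 3, 6 members passed as higher in JTE + CTGF than in JTE and 1 as lower. In that fit 2555 of the 16481 genes tested passed as higher and 2293 as lower. Mmp9 rose by 1.56 on the log2 scale (edgeR adjusted p = 0.000205), Timp1 by 0.69 (0.000946), Mmp11 by 0.47 (0.0272), Mmp14 by 0.31 (0.00964), Timp2 by 0.30 (0.00189) and Mmp2 by 0.28 (0.00442). Mmp15 was lower (log2 -0.28, edgeR adjusted p = 0.000945). The count of members called thus rested on this 1 library, in which those 6 genes were the highest of their group.

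**Figure D4:**
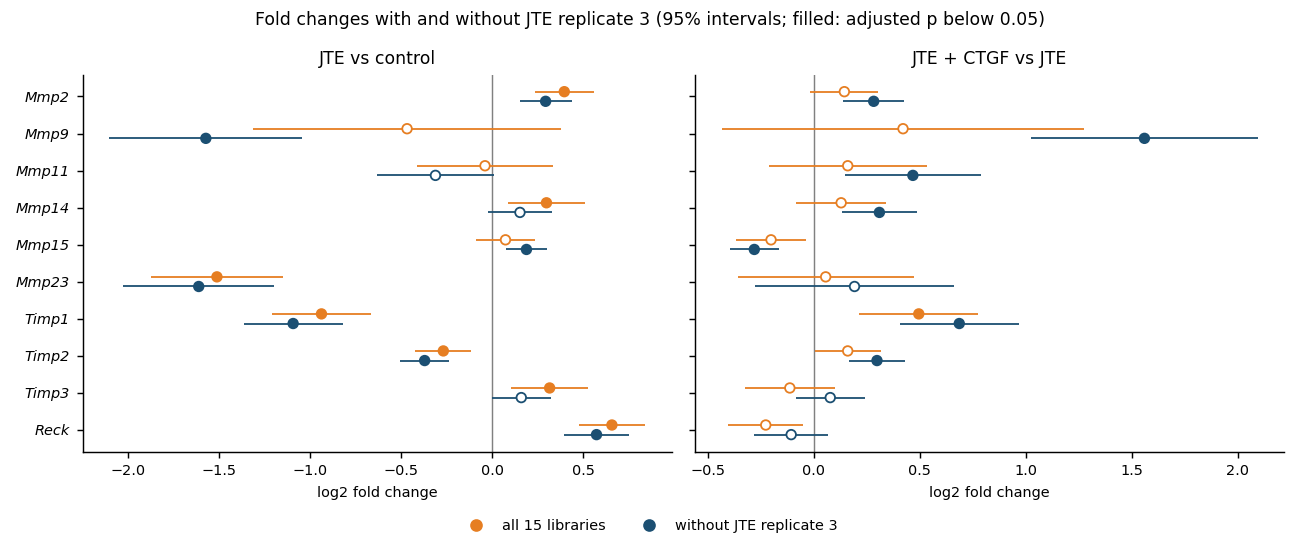
Log2 fold changes (x axis) with 95% confidence intervals for JTE against control and JTE + CTGF against JTE, from all 15 libraries and without JTE replicate 3; filled points have an adjusted p below 0.05. Mmp9 moves from -0.47 to -1.57 in the left panel and from 0.42 to 1.56 in the right one.

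JTE + CTGF was also compared with control. Mmp2 (log2 0.54 ± 0.08), Mmp14 (0.43 ± 0.10) and Reck (0.43 ± 0.09) were higher, and Mmp23 and Timp1 lower. These were 5 of 10 members, against 61.1% of all genes (28.1% higher and 33.0% lower). Members without overlap numbered 7 of 10, against 64.8% of all genes, and Mmp23 was the 1 that met the criterion of the study, against 11.8%. Mmp14 had 7364, 6612 and 6381 in JTE + CTGF, all above the control libraries (edgeR adjusted p = 0.00141), and this call was kept without each library in turn.

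Explants in standard medium were set against fresh tissue to give the background of culture, in which dorsal buds, 2 further days and the medium change together and cannot be told apart. Mmp9, Mmp15, Timp1, Mmp14, Timp3 and Timp2 were higher in control and Reck was lower, 7 of 10 members against 57.8% of all genes (28.5% higher and 29.3% lower). Members without overlap numbered 7 of 10, against 63.8% of all genes, and 5 met the criterion of the study, against 12.1%. The median log2 fold change was 0.44 over the members and -0.02 over all genes.

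Mmp9 went from 54.0, 36.4 and 32.8 in wt to 212, 210.1 and 272 in control, a rise (log2 2.48 ± 0.48, edgeR adjusted p = 0.000261). The macrophage sum was 2422 to 2548 in wt, below the control values given above, and its part in the value of Mmp9 was not tested. Mmp15 went from 847, 834 and 823 to 1911, 1953 and 1834, or 2.28-fold (log2 1.19 ± 0.08, edgeR adjusted p = 2.27e-09). Timp1, at 118, 116 and 95.7 in wt, rose 2.16-fold (log2 1.11 ± 0.13, edgeR adjusted p = 1.31e-06). None of these groups overlapped. The makeup of the tissue differed in other lists as well. Erythroid markers were lower in 8 of 8, and of 5 mesothelial markers 4 were lower and 1 higher. Acinar markers were higher in 6 of 7 and endocrine markers in 5 of 9. Erythroid markers summed to 10139 to 12478 in wt and 136 to 376 in control. The part of these shifts in the members' values was not tested.

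Mmp14, Timp3 and Timp2 rose by 0.86, 0.54 and 0.35 on the log2 scale. Reck fell 2.18-fold (log2 -1.12 ± 0.08, edgeR adjusted p = 7.17e-09), and its level in JTE remained below each wt library. Mmp2, Mmp23 and Mmp11 did not pass, with log2 differences of -0.09, -0.17 and -0.39. Timp1 was higher and Reck lower in control than in wt, and both moved the other way in JTE against control, but these comparisons share the control libraries.

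The response to JTE013 in culture was set against the response to the null genotype in fresh tissue by an interaction term, since both target the same receptor. The responses differed for Timp1 (-1.27 ± 0.18 on the log2 scale, edgeR adjusted p = 3.91e-05), Mmp23 (-1.15 ± 0.23, 0.000661), Mmp11 (-0.82 ± 0.24, 0.00969), Timp2 (-0.39 ± 0.10, 0.00583) and Mmp15 (0.30 ± 0.11, 0.0418). These were 5 of 10 members, 1 higher and 4 lower, against 42.9% of all genes (21.5% higher and 21.5% lower). The 5 calls were kept without JTE replicate 3, and Mmp9 then also passed (-2.34, edgeR adjusted p = 6.54e-05, against -1.24 and 0.146 with it). For Reck the 95% interval of the difference was -0.12 to 0.37 (edgeR adjusted p = 0.402), and for Mmp2 it was -0.21 to 0.25 (0.898). These 2 genes passed as higher in each comparison taken alone. Stage, culture and the way the receptor was removed all differ between the comparisons and cannot be told apart.

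Other metalloproteinases were often below the filter on low counts. Of 18 listed genes of this group, including Timp4, 15 were in the table and 9 were tested. In JTE against control 1 was higher and 3 were lower, with a median log2 fold change of -0.40. Of all genes, 25.9% passed as higher and 26.2% as lower in that comparison. For this and the lists below, the share of all genes that passed in either direction was 25.8% in S1pr2 null against wt. It was 52.2% in JTE against control, 30.4% in JTE + CTGF against JTE and 57.8% from wt to control. Mmp12, the macrophage elastase, had 0 or 1 read in wt and 73 to 134 in control, at least 36.8-fold higher against a floor of 3 reads per library. It had 0 to 7 reads in JTE (log2 -5.25 against control, edgeR adjusted p = 5.02e-07) and 13 to 25 in JTE + CTGF. The macrophage sums given above were lower in JTE as well, and their part in the value of Mmp12 was not tested. Mmp7, matrilysin, had 11 to 17 reads in control and 0 or 1 in JTE, at least 4.37-fold lower against the same floor. Mmp19 rose by 2.02 on the log2 scale from wt to control and was lower in JTE (log2 -0.92, edgeR adjusted p = 1.93e-06), while Mmp28 was higher in JTE (log2 1.17, edgeR adjusted p = 0.000219). In S1pr2 null 1 gene of this group, Mmp16, passed as higher (log2 0.83, edgeR adjusted p = 0.000201).

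The activating proteases changed in JTE against control in 10 of 14 genes tested, 2 higher and 8 lower, against 52.2% of all genes. Plau (urokinase) was lower (log2 -2.72 ± 0.18, edgeR adjusted p = 3.58e-09), as were Serpinf2, the plasmin inhibitor (log2 -2.58 ± 0.16), and Plg, plasminogen itself (log2 -2.44 ± 0.58). Plg had few reads, 15 to 21 in control and 1 to 7 in JTE. Pcsk6, a furin-like convertase, was higher (log2 1.74 ± 0.07, edgeR adjusted p = 1.02e-11). The median log2 fold change of the list was -0.36. From wt to control 7 of 14 were higher and 3 lower, with Plaur, the urokinase receptor, at 3.43 and Plau at 3.25 on the log2 scale. In S1pr2 null 2 were higher (Plau at 0.63 and Plat at 0.52) and 4 lower.

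A list of other inhibitors, clearance and related genes held 7, not all of them inhibitors. Of these, 1 was higher and 5 were lower in JTE against control, where 25.9% and 26.2% of all genes passed. The median log2 fold change was -1.03. A2m (log2 -1.62), Tfpi2 (-1.14) and Pcolce (-1.12) fell, and Lrp1, the receptor that takes up inhibitor complexes, rose (0.59). Reads were few for A2m (22 to 28 in control, 5 to 13 in JTE) and Tfpi2 (21 to 33 in control, 9 to 18 in JTE). Lrp1 was also higher in S1pr2 null (log2 0.56, edgeR adjusted p = 0.00605). With CTGF, Pcolce was higher than in JTE (log2 0.44) and Lrp1 lower (-0.50), a call that was lost without JTE replicate 3 (log2 -0.25, edgeR adjusted p = 0.0812).

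AP-1 and Ets factors belong to families with binding sites described in metalloproteinase promoters. Of 11 tested, 7 were lower in JTE than in control, against 26.2% of all genes, and the other 4 did not pass. Without JTE replicate 3, 8 were lower and 1 was higher. Fosb (log2 -2.18), Fos (-1.21) and Junb (-1.20) fell the most, where Fosb had few reads, 13 to 28 in control and 3 to 6 in JTE. Junb (0.73), Fos (0.54) and Jund (0.42) were higher in JTE + CTGF than in JTE. From wt to control 9 rose and 1 fell, with Fos at 3.79 and Junb at 3.08 on the log2 scale. In S1pr2 null 3 were higher (Ets1, Fosl2 and Jun, at 0.56, 0.32 and 0.29) and the other 8 did not pass.

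The related ADAM and ADAMTS families moved in both directions. In JTE against control 4 of 10 ADAM genes were higher and 1 was lower, Adam8, a leukocyte gene (log2 -1.59 ± 0.25). Of 18 ADAMTS genes 5 were higher and 9 lower, against 25.9% and 26.2% of all genes. These counts became 2 and 1 for ADAM and 4 and 6 for ADAMTS genes without JTE replicate 3. In S1pr2 null 7 ADAMTS genes were higher and 3 lower, with Adamts2, a procollagen N-propeptidase, at 0.72 and Adamts16 at -0.64 on the log2 scale. With CTGF, 8 ADAMTS genes were lower than in JTE, with Adamts12 at -1.56 (edgeR adjusted p = 5.3e-07), and 1 was higher.

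Of 19 matrix substrates, 6 were higher and 4 lower in JTE than in control, against 25.9% and 26.2% of all genes. The median log2 fold change was 0.07. Col5a1 (0.57) and Col1a1 (0.50), fibrillar collagens, rose and Col2a1 (-1.87), Eln (-0.85) and Bgn (-0.39) fell. In S1pr2 null 3 were higher and 9 lower. Eln (elastin, -0.77), Dcn (decorin, -0.69) and Col4a1 (a basement membrane collagen, -0.43) fell, and Lama1 rose (0.77). Without JTE replicate 3, the lists stood at 1 higher and 5 lower for other metalloproteinases, 2 and 9 for activation, and 6 and 6 for substrates in JTE against control.

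**Figure D5:**
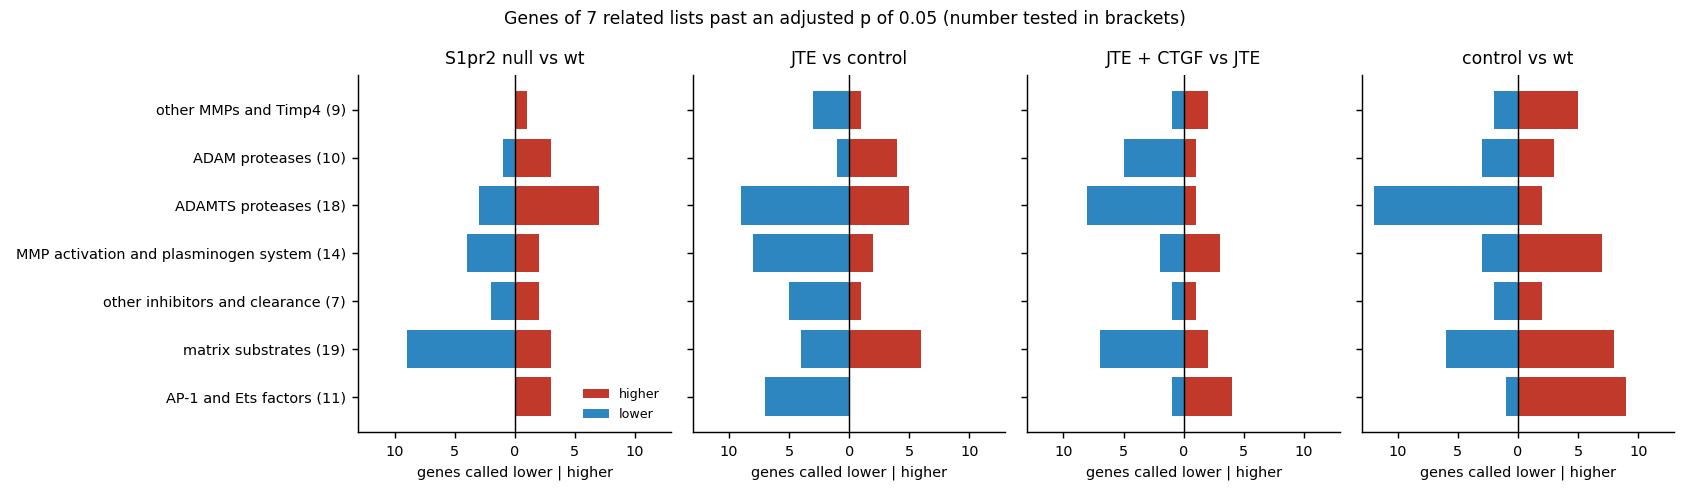
Number of genes of 7 related lists past an adjusted p of 0.05 in 4 comparisons; bars to the right count genes that were higher and bars to the left genes that were lower, with the number tested in brackets. In JTE against control, 8 of 14 activation and plasminogen genes and 7 of 11 AP-1 and Ets factors lie to the left. Of all genes tested, 26.2% passed as lower in that comparison.

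The transcripts with the most similar pattern were found by Pearson correlation of log2 CPM over the 15 libraries, which share groups and culture. The highest values were with Rab28 (0.961), Atxn7l3 (0.934) and Cfap300 (0.931) for Mmp2. They were with Ahnak2 (0.988), Amigo1 (0.981) and Lamp1 (0.981) for Mmp14. For Timp1 they were with Socs2 (0.947), Cebpd (0.93) and Prkar1a (0.908), and for Timp3 with Sparcl1 (0.98), Pvr (0.976) and Enpep (0.97). These values describe 15 libraries that fall into separate groups and carry no test.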

How the data were processed

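RNA was sequenced as single-end libraries, and the authors aligned the reads to mm10 with GSNAP and deposited raw read counts per gene from featureCounts 1.4.6, for uniquely aligned reads. They tested with DESeq2 1.6.2. Of the 25292 gene identifiers, 97.9% had a symbol. The counts were fitted with edgeR 4.0.16 (R 4.3.3) using TMM scaling, filterByExpr with a minimum count of 10, and the quasi-likelihood test over all 15 libraries with a term per group. p-values were adjusted by Benjamini-Hochberg over 16245 genes, and 0.05 was the threshold. The common coefficient of variation was 7.3%. The fit was tested on simulated data. Levels per length are CPM divided by exonic kilobases.

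The members and gene lists were chosen with earlier results of these data known. The genes named were all members, S1pr2, and of each list up to 3 genes in each direction with the greatest fold change past the threshold. The 3 transcripts most correlated with Mmp2, Mmp14, Timp1 and Timp3 were also named. The text names a part of these. A gene's share of 50-base words found elsewhere was 21.4% for Timp3, 3.72% for Mmp11 and at most 1.15% for the other members. Whether replicates came from separate litters was not stated, so p-values measure only the spread between these libraries. Alternatives were other scalings, no filter, DESeq2 1.42.0, a replicate block, the libraries of a comparison alone, the criterion of the study, and leaving out each library. Scaling by library totals was chosen after seeing the data.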

Additional observations from a re-analysis of the deposited data

Results flagged for a closer look

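The response to JTE013 in culture differed from the response to the null genotype for 5 members by the interaction term, given as the first minus the second on the log2 scale. The values were -1.27 for Timp1, -1.15 for Mmp23, -0.82 for Mmp11, -0.39 for Timp2 and 0.30 for Mmp15. Timp1 went down with JTE013, with all 3 JTE libraries below control, and was above wt in all 3 null libraries. Mmp11 was higher in S1pr2 null while its JTE and control libraries overlapped. S1pr2 itself differed by -0.79, as it was higher in the libraries labelled S1pr2 null and did not pass the test with JTE013. The difference for Mmp15 was lost in 9 of 15 fits that each left out 1 library. Without JTE replicate 3 the difference for Mmp9 also passed (-2.34). With 3 libraries a group, no test for a single outlying library was run.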

How the results depend on the processing

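Of 60 member values, 57 kept their direction and side of the threshold with DESeq2 and with its size factors, 58 with upper quartile scaling, 54 with no filter on low counts, 49 with the libraries of the comparison alone and 54 with library totals, which shift the median of all genes from wt to control to -0.17. The log2 difference of Mmp14 between S1pr2 null and wt turned to 0.0004727 (size factors), 0.004045 (libraries alone), 0.005566 (library totals) and 0.00196 (DESeq2), and the Mmp2 interaction to -0.003566 and -0.003355 (size factors, DESeq2). For S1pr2 null against wt, members lower became 1 with upper quartile scaling, no filter and library totals, the libraries alone gave 6 higher and 2 lower, and the study's criterion gave 1 higher. For JTE against control, members higher were 2 with the libraries alone and 0 by the study's criterion. For JTE + CTGF against control that criterion gave 0 higher and 1 lower, and against JTE 0 higher, with 2 higher without the filter and 1 lower with library totals. From wt to control, members lower were 2 with no filter or the libraries alone and 3 with library totals. In the interaction, members higher were 0 with size factors, upper quartile scaling, the libraries alone and DESeq2, and 2 without the filter. The summed level per length with library totals was 271.2 in wt, 310.7 in S1pr2 null and 401.3 in JTE + CTGF. The causes were not tested.

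With the replicate number as a block, Mmp15 passed as lower in S1pr2 null (log2 -0.23, edgeR adjusted p = 0.0313) and in JTE + CTGF against JTE (-0.20, 0.0405), and Mmp11 from wt to control (-0.39, 0.046), so members lower became 1, 1 and 2. The block changed no other call. Deviations of libraries that share a number correlated at -0.097 to 0.248, not above 0.1 in every pair, so the numbers were not taken as pairs.

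Leaving out each library in turn, members higher and lower ranged from 3 to 5 and 0 to 1 for S1pr2 null against wt, 2 to 4 and 3 to 4 for JTE against control, 3 to 4 and 2 to 2 for JTE + CTGF against control, 0 to 6 and 0 to 1 for JTE + CTGF against JTE, 6 to 6 and 1 to 2 from wt to control, and 0 to 1 and 4 to 5 for the interaction. Log2 values that crossed 0 ranged from -0.01844 to 0.02087 for Mmp14 in S1pr2 null against wt, from -0.3112 to 0.1185 for Mmp11 and -0.001842 to 0.1881 for Mmp15 in JTE against control, from -0.008941 to 0.2782 for Mmp11 and -0.3705 to 0.1158 for Mmp9 in JTE + CTGF against control, from -0.1958 to 0.07836 for Timp3 and -0.09456 to 0.1928 for Mmp23 in JTE + CTGF against JTE, and from -0.07726 to 0.1033 for Mmp2 in the interaction. None of these values passed the threshold in the fit of all libraries. In JTE + CTGF against JTE, 6 members were higher without JTE replicate 3 and 0 without JTE replicate 2. The 1 lower was Mmp15 without JTE replicate 3, and Reck without wt replicate 1 or 2, control replicate 1 or 2, or JTE replicate 2.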
